A study of Rattus norvegicus with 6 samples.

Results

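The messages described here are those of the transforming growth factor beta (TGF-beta) system at the cell surface and in the matrix: the ligand genes Tgfb1, Tgfb2 and Tgfb3, the receptor genes Tgfbr1, Tgfbr2 and Tgfbr3, and the latent TGF-beta binding protein genes Ltbp1, Ltbp2, Ltbp3 and Ltbp4. They were taken by symbol from the deposited table of counts per gene, which holds 19825 genes, and all 10 were found. The cells were rat H9C2, an established line derived from embryonic heart that the submitters label as cardiomyocytes. The 3 siPUM2 libraries are of cells given an siRNA against PUM2, a Pumilio protein that binds messenger RNA, and the 3 NC libraries are of control cells labelled as empty vector, so on paper the groups also differ in the kind of nucleic acid they received. Separate cultures are not stated, and every p below therefore reflects the spread among these libraries, which may be technical.

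TGF-beta is made as a precursor whose propeptide stays wrapped around the mature growth factor and keeps it inactive. The propeptide is usually bound to an LTBP, which anchors the latent complex in the matrix on fibrillin and fibronectin until integrins, proteases or thrombospondin release the ligand. Free ligand joins the type II receptor TGFBR2 to the type I receptor TGFBR1, a kinase that phosphorylates SMAD2 and SMAD3, and betaglycan (TGFBR3) is a co-receptor that presents ligand, TGF-beta 2 above all. In heart the pathway is best known for turning fibroblasts into matrix-producing myofibroblasts.

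Library totals ranged from 27704702 to 30579237 counts. Levels within a gene are given as CPM, counts scaled to library size with TMM factors. For Pum2 itself the NC libraries gave 223, 228 and 225 CPM and the siPUM2 libraries 127, 126 and 120, a log2 fold change of -0.86. Of 16 cardiomyocyte markers found in the table, 9 were under 1 CPM in every library, among them the myosin genes Myh6 and Myh7 and the cardiac troponin gene Tnni3, whereas Tnnt2, Tnnc1 and the myoblast factor Myod1 were well above that. Endothelial markers summed to between 2.25 and 2.64 CPM over 7 genes, and 4 of the 5 macrophage markers were under 1 CPM in every library (the exception was Cd14). Summed fibroblast and smooth muscle markers were higher in siPUM2, at 14727 to 15350 CPM against 13431 to 13667 CPM in NC, and summed cardiomyocyte markers were 1327 to 1431 CPM against 975 to 1066 CPM (11 and 16 genes). Most of the first sum was Acta2 (8514 CPM in NC and 9657 in siPUM2). Over all tested genes 15.1% were called higher and 13.3% lower, at an adjusted p under 0.05 in the test described below. By gene, 7 of the 9 fibroblast and smooth muscle markers tested were called higher. The other 2, S100a4 (log2 fold change -0.18) and Pdgfrb (-0.08), were called lower. Most of the second sum was Tnnc1, Tnnt2 and Atp2a2, at 480, 474 and 401 CPM in siPUM2 (339, 298 and 337 in NC). Against 15.1% over all tested genes, 4 of the 8 cardiomyocyte markers tested were called higher and 4 were not called. The latter were Nkx2-5 (log2 fold change -0.14), Gata4 (-0.12), Myh6 (-0.58) and Nppb (0.34). Skeletal myoblast markers summed to 813 to 857 CPM in NC and 875 to 895 CPM in siPUM2 (12 genes) and went both ways. Of 9 tested, Tnnc2, Cdh15, Mymk and Des were called higher (15.1% over all tested genes). Myog, Mylpf and Myh3 were called lower (13.3% over all tested genes), by 2.18-fold, 1.90-fold and 1.90-fold. Myh3 was at a low level, 1.63 CPM in NC and 0.847 in siPUM2. The part of these cell type markers in the results below was not tested.

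Upstream sequence is shown for the ligand gene that fell and, from the latency genes, for one that rose and one that fell, so that these relatives can be set side by side; they were picked with their changes known. The sequences are RefSeq windows of the build GRCr8, printed from 250 bases before the listed start down to the outermost annotated start of the gene, 5′ to 3′ on the strand of the gene, with motif matches in capitals. All 10 genes had a window of 300 bases around the listed start. The windows of Tgfb2, Tgfb3, Tgfbr2, Ltbp2 and Ltbp3 lie inside the longest annotated gene model and are not printed. Tgfb1 (chr1:90324062-90324311, plus strand) had a match to none of the motifs searched.
Tgfb1: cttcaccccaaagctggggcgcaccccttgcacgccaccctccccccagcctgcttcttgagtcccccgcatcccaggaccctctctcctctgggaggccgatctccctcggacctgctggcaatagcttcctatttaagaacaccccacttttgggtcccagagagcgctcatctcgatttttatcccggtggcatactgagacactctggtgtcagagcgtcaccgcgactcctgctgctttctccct
Ltbp1 (chr6:26177347-26177551, minus strand) had a cyclic AMP response element (CRE).
Ltbp1: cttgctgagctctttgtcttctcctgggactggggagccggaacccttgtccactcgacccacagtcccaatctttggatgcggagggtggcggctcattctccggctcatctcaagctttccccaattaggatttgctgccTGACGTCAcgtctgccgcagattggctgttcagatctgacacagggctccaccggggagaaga
Ltbp4 (chr1:91759823-91760057, minus strand) had GC boxes, the kind of site that Sp1 family factors bind.
Ltbp4: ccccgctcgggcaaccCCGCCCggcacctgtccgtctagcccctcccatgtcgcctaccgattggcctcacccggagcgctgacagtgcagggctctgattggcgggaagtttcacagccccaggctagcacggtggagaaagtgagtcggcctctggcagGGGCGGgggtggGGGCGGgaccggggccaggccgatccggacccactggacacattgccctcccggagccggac

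The motifs below were searched for on both strands of each 300-base window: CRE (TGACGTCA), AP-1 (TGANTCA), a SMAD-binding element (CAGACA), the GC box (GGGCGG) and the TATA box (TATAAA). A CRE occurs in 1.83% of 33469 rat windows and among the members only in that of Ltbp1, at 1 place. The GC box occurs in 33.1% of all windows. It was found at 3 places each in Tgfbr1 and Ltbp4, at 1 place each in Tgfbr2, Tgfbr3, Ltbp2 and Ltbp3, and at none in the 3 ligand windows or in Ltbp1. No member window held the AP-1, SMAD or TATA letters, which occur in 7.33%, 21.1% and 14.2% of all windows. The GC content of the member windows ran from 47.7% in Tgfb3 to 74.7% in Tgfbr1. A match is a description of letters, and none of these windows was measured in these cells.

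Levels of different genes were compared per length, as FPKM (fragments per gene length and sequencing depth, from the deposited table). Tgfb3 was the most abundant of the 10 messages in both groups, at 191 ± 7.96 FPKM in NC (SD, n = 3), above 97.3% of all tested genes when averaged over the libraries. Tgfb1 followed at 104 ± 4.72 FPKM and Ltbp1 at 51.1 ± 0.847 FPKM. Tgfb2 (33.1 ± 0.484), Tgfbr2 (29.9 ± 0.104) and Ltbp4 (27.8 ± 0.598) lay close together in NC. Ltbp3 (12.8 ± 0.524) and Ltbp2 (11.3 ± 0.493) came next, and the receptor genes Tgfbr3 (4.32 ± 0.0400) and Tgfbr1 (2.61 ± 0.0737) were lowest. Neighbours in this order did not overlap in any case, although Tgfb2 over Tgfbr2 and Tgfbr2 over Ltbp4 differed only 1.11-fold and 1.07-fold. The order was the same in siPUM2, where the corresponding ratios were 1.25 and 1.44. In both groups the type II receptor message was therefore far above the type I message, with a ratio of 11.5 ± 0.359 in NC.

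**Figure D1:**
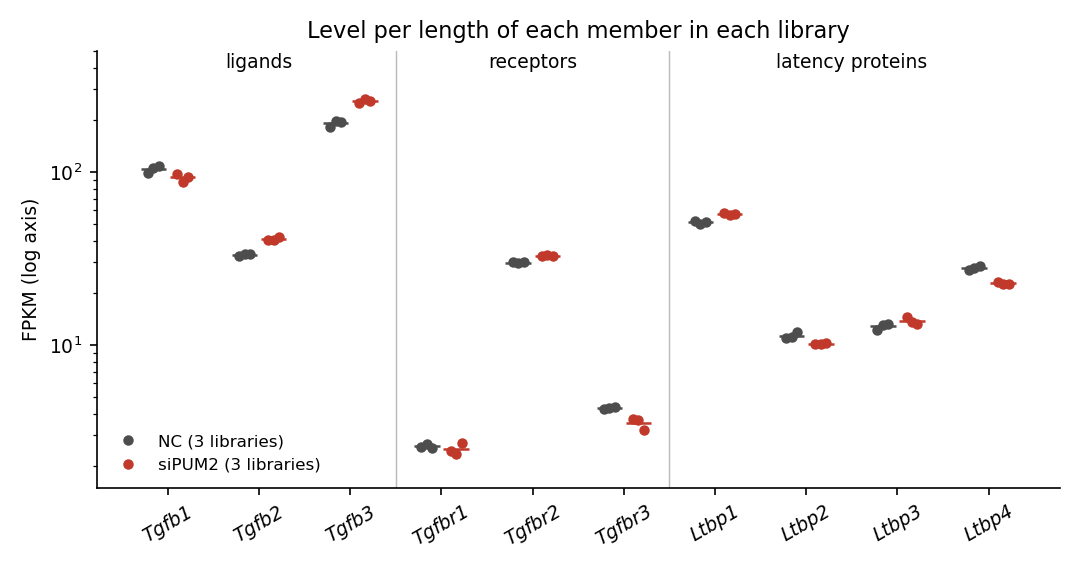
Level of each of the 10 messages in each library, as FPKM on a log axis, with NC in grey and siPUM2 in red (3 libraries each; the bar is the mean). Tgfb3 is highest and Tgfbr1 lowest in both groups, and Tgfb2 and Tgfb3 stand higher in all siPUM2 libraries while Ltbp4 and Tgfbr3 stand lower.

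Which of these messages changed with less PUM2 was read from siPUM2 against NC. With edgeR's quasi-likelihood test over 12985 genes, called at a Benjamini-Hochberg adjusted p under 0.05, 9 of the 10 members were called, 5 higher (Tgfb2, Tgfb3, Tgfbr2, Ltbp1, Ltbp3) and 4 lower (Tgfb1, Tgfbr3, Ltbp2, Ltbp4). Over all tested genes 28.4% were called, 15.1% higher and 13.3% lower. The share depends on abundance: of the 7342 tested genes with a mean CPM within the range of the members (16.6 to 871 CPM), 39.7% were called. The groups did not overlap in 9 members, against 39.9% of all tested genes. The members split in direction, with a median log2 fold change of 0.03 (0.001 over all tested genes), and the sizes were small: the largest rise was 1.34-fold (Tgfb3) and the largest fall 1.22-fold (Ltbp4), where the median called gene changed 1.15-fold. In bulk RNA, a change in the share of cells that make a message and a change in the amount per cell cannot be told apart.

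**Figure D2:**
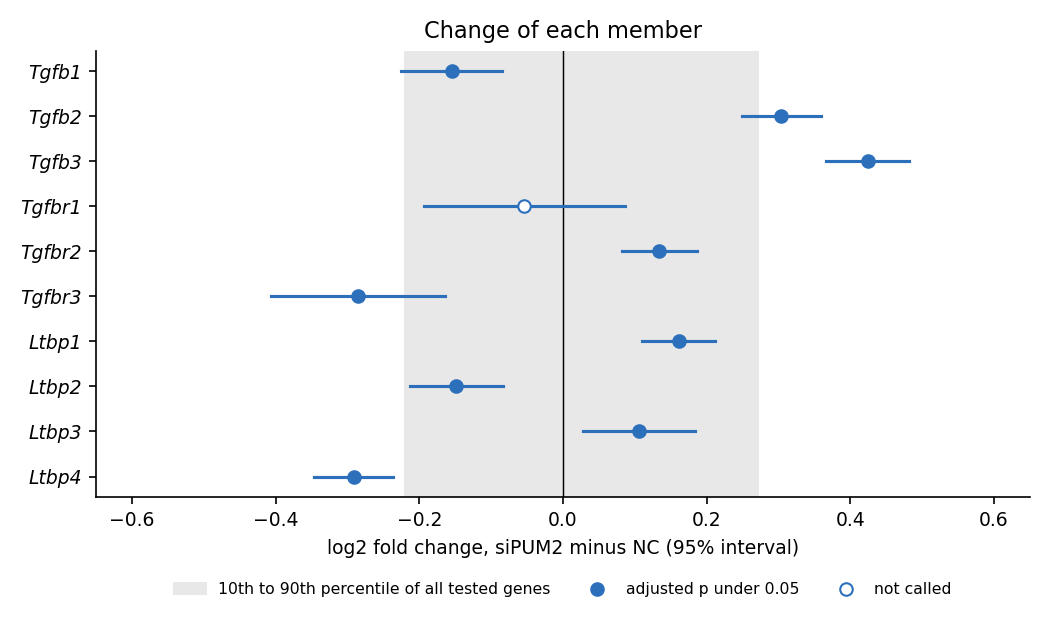
Log2 fold change of each member, siPUM2 minus NC, with its 95% interval; filled points have an adjusted p under 0.05 and the grey band spans the 10th to the 90th percentile of all tested genes (-0.22 to 0.27). Tgfb2 and Tgfb3 lie above the band, Tgfbr3 and Ltbp4 below it, and the interval of Tgfbr1 spans 0.

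The ligand genes moved apart. Tgfb3, whose product acts in palate fusion and in the forming heart valves, stood at 709, 766 and 757 CPM in NC 1, 2 and 3, while siPUM2 1, 2 and 3 gave 974, 1023 and 997 CPM. Every siPUM2 library was above every NC library by a margin wider than the range within either group. The log2 fold change was 0.42 ± 0.0280 (SE; adjusted p = 2.19e-12, edgeR), larger than that of 95.4% of tested genes.

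Tgfb2, which encodes the ligand that depends most on betaglycan, gave 177, 182 and 181 CPM in the NC libraries, whereas the siPUM2 libraries had 220, 220 and 228. The NC libraries lay close together, and all siPUM2 libraries were higher. On the log2 scale this is a rise of 0.30 ± 0.0266 (adjusted p = 7.32e-10, edgeR).

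Tgfb1, the isoform most often tied to fibrosis, went the other way. The NC libraries had 162, 172 and 177 CPM, the siPUM2 libraries 161, 144 and 155. The groups did not overlap, but NC 1 and siPUM2 1 nearly met. Its log2 fold change was -0.15 ± 0.0343 (adjusted p = 0.000965, edgeR), and the call was lost on log2(FPKM + 1) without a filter (adjusted p = 0.115).

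In siPUM2 the summed ligand message was larger and its make-up had changed. Summed over the 3 genes, ligand FPKM was 313, 335 and 336 in NC and 388, 390 and 391 in siPUM2, an increase of the mean by a factor of 1.19. Tgfb3 made up 58.3% ± 0.395 of this sum in NC and 65.7% ± 1.46 in siPUM2 (SD, n = 3), and Tgfb1 31.6% ± 0.423 and 23.8% ± 1.40. The share of Tgfb2 overlapped between the groups, at 10.1% ± 0.257 and 10.5% ± 0.192. The ratio of Tgfb3 to Tgfb1 was 1.81 to 1.88 in the NC libraries and 2.57 to 3.01 in the siPUM2 libraries, being highest in siPUM2 2, where Tgfb1 was lowest and Tgfb3 highest. These sums count messages per length and say nothing about secreted or active protein, which was not measured here.

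**Figure D3:**
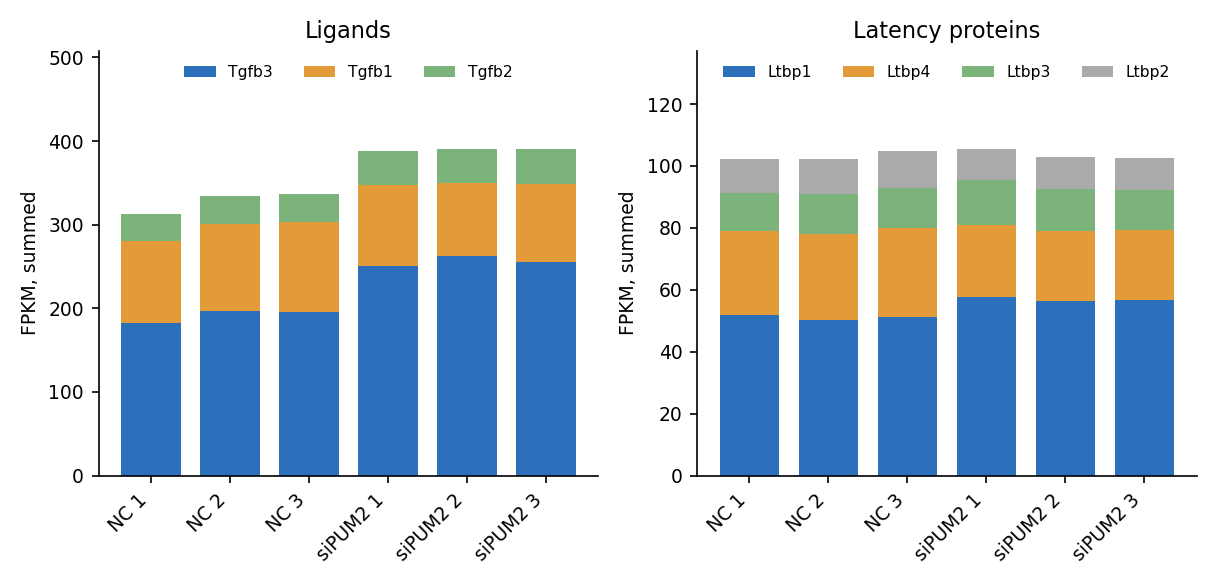
Summed FPKM of the ligand genes (left) and of the latency protein genes (right) in each library, stacked by gene. The ligand sum is 388 to 391 in siPUM2 against 313 to 336 in NC, with larger Tgfb3 and Tgfb2 parts and a smaller Tgfb1 part, while the latency protein sum overlaps between the groups and Ltbp1 takes a larger and Ltbp4 a smaller part.

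Among the receptors, Tgfbr2, the ligand-binding kinase, had the smallest SE. Its NC values were 172, 171 and 171 CPM, and its siPUM2 values 186, 189 and 189. The spread was under 1% of the mean in each group (coefficients of variation 0.284% and 0.744%). This is less than counting error alone would give at 4793 to 5492 counts per library, so it overstates the precision. The rise was 9.76% (log2 fold change 0.13 ± 0.0256, adjusted p = 0.000178, edgeR).

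Tgfbr3, the co-receptor betaglycan, read 33.8, 34.2 and 34.3 CPM in the controls against 29.4, 29.1 and 25.5 with siPUM2. All siPUM2 libraries were lower, siPUM2 3 most. On the log2 scale the change was -0.29 ± 0.0592 (adjusted p = 0.000481, edgeR). The betaglycan message thus fell while that of Tgfb2, a ligand betaglycan presents, rose.

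Tgfbr1, the type I kinase that passes the signal to SMAD2 and SMAD3, was not called. It had 425 to 526 counts per library, the fewest of the members, which came to 16.7, 17.4 and 16.5 CPM for NC and, for siPUM2, to 15.9, 15.3 and 17.6. The highest and the lowest library were both in siPUM2. The log2 fold change was -0.05 with a 95% interval from -0.19 to 0.09 (adjusted p = 0.612, edgeR), so that changes of the size seen for Tgfbr2 upward or for Tgfbr3 downward lie outside this interval. The ratio of Tgfbr2 to Tgfbr1 was 11.1 to 11.7 in NC and 12.1 to 13.9 in siPUM2.

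The latency proteins also divided. Ltbp1, the most abundant of them and a carrier of all 3 TGF-beta isoforms, had NC values of 365, 353 and 360 CPM and siPUM2 values of 407, 398 and 401, with no overlap. Its log2 fold change was 0.16 ± 0.0249 (adjusted p = 1.22e-05, edgeR). This is the member whose upstream sequence above holds the CRE letters.

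Ltbp4, which carries TGF-beta 1 and also takes part in elastic fibre assembly, went from 176, 179 and 183 CPM across the NC libraries to 149, 146 and 145 across siPUM2. The gap between the lowest NC and the highest siPUM2 library was several times the range within either group. The log2 fold change was -0.29 ± 0.0268 (adjusted p = 1.97e-09, edgeR).

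Ltbp2 differs from the others in that it does not bind latent TGF-beta and serves microfibrils. NC 1, 2 and 3 gave 102, 103 and 110 CPM and siPUM2 1, 2 and 3 gave 94.3, 94.2 and 96.1, so that every siPUM2 library was lower. The log2 fold change was -0.15 ± 0.0317 (adjusted p = 0.00065, edgeR), and the adjusted p was 0.0547 on log2(FPKM + 1) without a filter.

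The rise of Ltbp3 was the weakest call. Ltbp3, a carrier known from bone and tooth, ran at 70.5, 75.3 and 75.9 CPM for NC against 84.1, 78.4 and 76.4 for siPUM2. NC 3 and siPUM2 3 nearly met, and in FPKM both were 13.19. The log2 fold change of 0.11 ± 0.0379 had an adjusted p of 0.0353 (edgeR). Without NC 1 or siPUM2 1 the change itself was smaller, at 0.07 in each case (adjusted p = 0.259 and 0.303, edgeR). Without NC 2 or siPUM2 2 the call was also lost (0.0736 and 0.0721), but the change was 0.12 in each case. It was also lost with DESeq2 (adjusted p = 0.116) and with upper quartile scaling (0.0588). Whether the authors' counting used strand is not given in the sources used here. Small or noncoding genes annotated across members (1 small nucleolar RNA gene in Tgfb2, 2 long noncoding RNA genes in Tgfbr3 and 1 in Ltbp1) had no row matched in the count table.

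Summed over the 4 genes, latency protein FPKM overlapped between the groups, at 103 ± 1.54 in NC and 104 ± 1.63 in siPUM2. Within that sum Ltbp1 took 49.6% ± 0.948 in NC and 55.0% ± 0.264 in siPUM2, and Ltbp4 27.0% ± 0.290 and 21.9% ± 0.102. The ratio of Ltbp1 to Ltbp4 was 1.81 to 1.90 in NC and 2.50 to 2.53 in siPUM2. Set against the 3 carriers of TGF-beta (Ltbp1, Ltbp3 and Ltbp4), summed ligand FPKM was 3.43 to 3.68 times as large in NC and 4.07 to 4.23 times in siPUM2. The ligand sum was thus higher while the carrier sum overlapped between the groups.

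The rest of the pathway was read through 6 lists of other genes. From each list the 4 genes with the lowest p are named, and any other gene named was chosen after its values were seen. Of 94 distinct genes tested, 22 were called higher, 25 lower and 47 were not called, beside 15.1% higher and 13.3% lower over all tested genes and 39.7% called in either direction at the abundance of the members. These lists were not tested against other genes.

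Of 17 tested genes that store or release latent TGF-beta, 8 were called higher and 4 lower (15.1% and 13.3% over all tested genes). Among these 17 genes 5 were not called, and the median log2 fold change of the list was 0.09. Adamts1, a secreted protease, had the lowest p of them: 379 ± 13.4 CPM in NC and 506 ± 7.71 in siPUM2, 1.34-fold higher (SD, n = 3; adjusted p = 1.31e-12, edgeR). Itgb1, the common integrin beta chain, rose 1.25-fold to 2378 ± 34.0 CPM, and Plat, the tissue plasminogen activator, rose 1.25-fold to 90.8 ± 2.76 CPM. Efemp2, the fibulin that helps to lay down elastin, fell 1.17-fold to 328 ± 6.06 CPM. Thrombospondin 1 (Thbs1), an activator of latent TGF-beta, rose 1.11-fold from 3942 ± 78.7 to 4394 ± 153 CPM, and the integrin chain Itgav rose 1.11-fold. Lrrc32 encodes GARP, the cell-surface tether of latent TGF-beta on regulatory T cells and platelets. It was low but rose 1.84-fold, to 5.01 ± 0.295 CPM (adjusted p = 1.72e-05, edgeR). Adamtsl2 had the largest fold change of the list, 3.52-fold higher (adjusted p = 1.15e-05, edgeR). Its level was near the floor, at 0.495 ± 0.122 CPM in NC and 1.76 ± 0.217 in siPUM2. This was 12 to 19 counts per NC library and 44 to 54 per siPUM2 library. Of the other fallers, Mmp14, a membrane-bound protease that can release latent TGF-beta, fell 1.14-fold to 162 ± 3.19 CPM and Emilin1, a matrix protein that restrains processing of the precursor, fell 1.11-fold. Fn1 (fibronectin) fell by 0.09 on the log2 scale, a call lost without NC 3 (adjusted p = 0.094, edgeR). The fibrillin gene Fbn1 (log2 fold change 0.01), Furin, whose product cleaves the precursor (0.06), and Itgb8 (0.09) were not called, although Furin was called without NC 3 (0.09; adjusted p = 0.0229, edgeR).

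Extracellular antagonists and co-receptors split, with 2 of 7 tested genes called higher, 3 lower and 2 not called (median log2 fold change -0.04). The share called was 28.4% over all tested genes and 39.7% at the abundance of the members. Cd109, a membrane protein that binds TGF-beta and dampens its receptors, fell 1.31-fold, to 27.0 ± 0.986 CPM in siPUM2 (adjusted p = 7.54e-06, edgeR). Bgn (biglycan), a proteoglycan that binds TGF-beta, rose 1.09-fold to 1498 ± 28.2 CPM. The secreted protease Htra1 had a log2 fold change of -0.09, and the co-receptor Eng (endoglin) one of 0.11. The call of Htra1 was lost without NC 1 (adjusted p = 0.0530, edgeR), and that of Eng without NC 2 (0.0524) or siPUM2 1 (0.0556). The decoy receptor gene Bambi fell 1.44-fold at a low level, 2.66 ± 0.210 to 1.85 ± 0.0688 CPM (adjusted p = 0.0292, edgeR). That call was lost without NC 1 (0.0852), NC 3 (0.0976), siPUM2 1 (0.055), siPUM2 2 (0.0674) or siPUM2 3 (0.0729), and with DESeq2 (0.0945). The count of this list was 3 without NC 1 and 3 without siPUM2 1.

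Of 16 tested genes listed as signal transducers, 1 was called higher, 2 lower and 13 were not called (median log2 fold change -0.04). The name stands for the whole list, here and below, since genes that restrain the signal were not set apart. The called share was 28.4% over all tested genes and 39.7% at the abundance of the members. Strap, which encodes a protein that binds the TGF-beta receptors and SMAD7, fell 1.17-fold, ending at 191 ± 2.13 CPM (adjusted p = 1.19e-07, edgeR). The adaptor gene Shc1 rose 1.10-fold and Tab2, an adaptor of the TAK1 kinase, fell 1.16-fold. For Smad3 the NC libraries had 36.5, 38.6 and 38.4 CPM and the siPUM2 libraries 33.5, 31.7 and 37.3, so that siPUM2 3 lay within the NC range (log2 fold change -0.15; adjusted p = 0.0645, edgeR, and 0.00276 without siPUM2 3). Smad2 (-0.02) and Smad4 (0.01) were not called.

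The list of SMAD inhibitors gave 2 called higher, 2 lower and 10 not called of 14 tested, with a median of -0.03. Over all tested genes 28.4% were called, and 39.7% at the abundance of the members. This list also holds Rnf111, Usp4, Usp11 and Uchl5, none of them called, which promote the signal rather than inhibit it. The name SMAD inhibitors therefore stands for the whole list, here and below. Tgif1, a transcriptional corepressor of SMADs, rose 1.16-fold, reaching 56.6 ± 1.52 CPM (adjusted p = 0.00105, edgeR). The other 3 calls were lost in some settings. Smad7, the inhibitory SMAD that TGF-beta itself induces, was at a log2 fold change of -0.18 (adjusted p = 0.0337, edgeR). It was 0.0974 with DESeq2 and was lost without NC 2 (0.1), NC 3 (0.122) or siPUM2 1 (0.177). Nedd4l (-0.20, adjusted p = 0.0250), a ubiquitin ligase, was lost without NC 2 (0.0565), NC 3 (0.126), siPUM2 2 (0.0671) or siPUM2 3 (0.0683). Trim33 (0.15, adjusted p = 0.0481) was lost without NC 1 (0.0528), NC 2 (0.193), siPUM2 1 (0.151) or siPUM2 2 (0.0709). The list's count was 2 without NC 2, NC 3 or siPUM2 1 (each alone) and 1 with DESeq2. Skil, a further TGF-beta-induced inhibitor, was not called (0.11).

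Genes known to be induced by TGF-beta moved both ways. Of 32 tested, 6 were called higher, 13 lower and 13 were not called, with a median log2 fold change of -0.08. Of all tested genes 15.1% were called higher and 13.3% lower, and at the abundance of the members 39.7% in either direction. The difference between the directions was not tested. Tgfbi, named for its induction by TGF-beta, had 197, 202 and 205 CPM across NC and 137, 128 and 136 across siPUM2 (log2 fold change -0.59 ± 0.0289; adjusted p = 9.58e-15, edgeR). Postn, a matricellular protein, fell in parallel (-0.63 ± 0.0468). The contractile genes Tagln (0.27 ± 0.0247) and Cnn1 (0.26 ± 0.0280), which are also targets of serum response factor, rose. Klf10 and Junb, early response genes, fell 1.22-fold and 1.17-fold. Many of these genes also respond to other signals, and no SMAD activity was measured here.

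**Figure D4:**
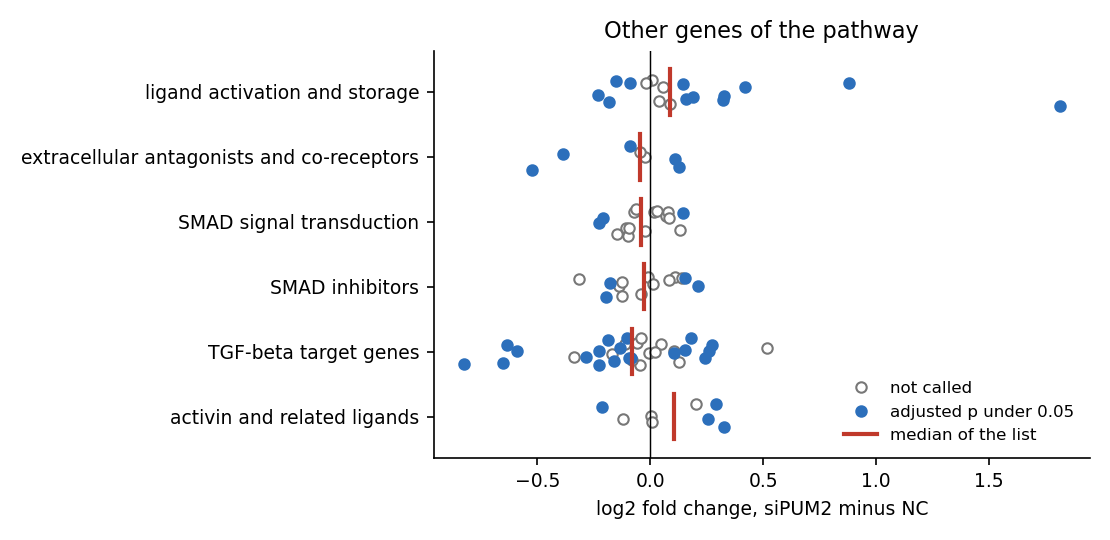
Log2 fold change of every tested gene in the 6 pathway lists, siPUM2 minus NC, with genes at an adjusted p under 0.05 filled and the median of each list as a red bar (points are spread vertically for visibility only). Medians run from -0.08 for the target genes to 0.10 for activin and related ligands, and every list holds called genes on both sides of 0; the point farthest right is Adamtsl2.

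Activins and related factors use the same SMAD2 and SMAD3 branch. Of 8 tested genes 3 were called higher, 1 lower and 4 were not called, with a median of 0.10. Of all tested genes 28.4% were called, and 39.7% at the abundance of the members. Fst, the secreted trap of activin and myostatin, was 1.23-fold higher at 763 ± 25.1 CPM (adjusted p = 3.05e-09, edgeR). Gdf11 rose 1.25-fold from 59.2 ± 2.27 to 74.3 ± 1.84 CPM. The type II receptor gene Acvr2a fell 1.16-fold (adjusted p = 0.0104, edgeR; 0.0646 without siPUM2 2), and Acvr2b was at a log2 fold change of 0.26 (adjusted p = 0.0436). Acvr2b lost its call without any single library (0.0696 to 0.117), and the list's count was 2 without siPUM2 2. The activin subunit gene Inhba was not called (0.01).

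For each called member, the tested genes of at least 10 CPM with the most similar profile over the 6 libraries were listed by Pearson's r of log2 CPM. This is a description, since the difference between the 2 groups sets most of r and the libraries are shared by all genes. Closest to Tgfb3 were Nid2, Gnaq and Tmem199 (r = 0.9991, 0.9987 and 0.998), and 519 genes had r above 0.95. Closest to Tgfb2 were Cbx6, Ktn1 and Lxn, to Tgfbr2 Fndc3b, Snap23 and Cpe, and to Ltbp1 Atrnl1, Lrch4 and Mark4. Ltbp4 had Dohh, Kpnb1 and Ncapd2 nearest, with 431 genes above 0.95. Tgfb1 followed few genes so closely: 49 were above 0.95, led by Kxd1, RGD1359127 and Ctc1, none of which was called. Ltbp3 had 23, with Rtca, Mapk8 and Rad9a nearest, Tgfbr3 had 147 (Angptl2, Dhx15, Pdcl) and Ltbp2 had 125 (Nek2, Eif2s2, Setd5).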

How the data were processed

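Of 2 tables the authors deposited, one holds unnormalized read counts of each gene and one holds FPKM to 2 decimals, per the file headers and values. HISAT2, DESeq2 and mRatBN7.2 are named in the submitters' processing notes. Program versions, the annotation and how reads were counted: not given in the sources used here. Per the labels' protocols, captured polyadenylated RNA was made into directional paired-end libraries.

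The test was edgeR 4.0.16 (glmQLFit, glmQLFTest; R 4.3.3) on all genes, with TMM factors, filterByExpr (12985 of 19825 genes kept) and group as the sole covariate. The Benjamini-Hochberg adjustment ran over every tested gene. SEs come from the F statistic, and 95% intervals use its degrees of freedom. Genes named were all members, Pum2, the 4 lowest p of each list and the 3 genes most correlated with each called member (mean of at least 10 CPM, prior count 2). The members and lists were chosen with earlier results of these data known. Of 182 list entries 163 matched by symbol and 19 had no match. Alternatives were DESeq2 1.42.0, limma 3.58.1 (voom, or log2 FPKM), other scaling, filters and thresholds, and each library left out. Within groups, no pair of libraries agreed within counting error (chi-square per degree of freedom 2.07 to 3.80, highest for pairs with siPUM2 3), so all 6 were kept. The procedure was tested on simulated data. Some results are not reported here.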

Additional observations from a re-analysis of the deposited data

How the results depend on the processing

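Directions did not reverse for Pum2, any member or any pathway gene named by rule under the 18 alternatives. Tgfb2, Tgfb3, Tgfbr2, Tgfbr3, Ltbp1 and Ltbp4 kept their calls under all 18, Tgfb1 and Ltbp2 under 17 and Ltbp3 under 7. Leaving out single libraries gave 3004 to 3538 called genes, 8 to 9 called members, 4 to 5 higher and 4 lower, and 41 to 47 pathway genes. By list it gave 12 storage and release genes in each case, 3 to 5 antagonists and co-receptors, 3 to 4 transducers, 2 to 4 SMAD inhibitors, 17 to 19 targets and 2 to 4 activin genes. On log2(FPKM + 1) without a filter 2246 genes were called, with 2 members lower, 1 SMAD inhibitor and 2 activin genes. On log2(FPKM + 1) and on log2(FPKM + 0.1), both with a minimum of 0.5 FPKM, 2 SMAD inhibitors were called. At an adjusted p of 0.01 it was 1 SMAD inhibitor and 2 activin genes, and with DESeq2 1 SMAD inhibitor. The cause was not tested. The summed ligand level and the share of Tgfb3 moved by less than 1 SD with lengths taken from counts over FPKM or without single libraries. With the replicate number as a block, 3731 genes were called, with 8 members, 48 pathway genes and a Pum2 log2 fold change of -0.86, and Ltbp3 lost its call (adjusted p = 0.0503). Deviations of same-numbered libraries correlated at 0.034, 0.020 and 0.003, and not every library correlated best with its own number, so the numbers do not pair the libraries. Depth limits Tgfbr1 most, with 425 to 526 counts. No single library decided a call of a member other than Ltbp3.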
